A study of Homo sapiens with 12 samples.

Results

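The proximal long arm of chromosome 19 was examined in HEK293 cells through its circular RNAs (circRNAs) and their host genes. The segment was set as every circRNA whose start lies between positions 28000000 and 42000000 of chromosome 19 in hg19, starts counted from 0 as deposited. It was singled out because earlier results of these libraries showed it higher in the clone of experiment 2, so it was chosen by the gene counts and back-splice reads of induced against parental cells in experiment 2, and that contrast is given here as a description without a test. The segment held 264 of 29693 circRNAs in experiment 1 and 187 of 26796 in experiment 2. Together these were 330 of 44042 circRNAs, on 90 host genes, of which 121 circRNAs and 53 hosts were listed in both experiments. A gene row was found for 83 of the 90 hosts, 46 of them through the symbol column and the others through a table of gene identifiers and RefSeq synonyms. The rest of chromosome 19, with 440 circRNAs in experiment 1, 471 in experiment 2 and 314 hosts in either, was the comparison.

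Each of the 2 experiments had 3 libraries per group. HEK293 is a line derived from human embryonic kidney. The clone, HEK293_Flp In/TO △Fox2_Flag_mFox1, descends from a Rbfox2 deficient clone and carries an Rbfox1 transgene with an HA-Flag tag behind a promoter that doxycycline turns on (Flp-In T-REx system). It is 1 line, and both groups of experiment 1 and the induced group of experiment 2 share its RBFOX2 deficiency and transgene. In experiment 1, induced cells of the clone, harvested 2 weeks after 0.5 µg/ml doxycycline, were set against untreated cells of the same clone. In experiment 2, induced cells of the clone were set against cells labelled as parental HEK293, which also received doxycycline. Dose and time were stated for the clone and were assumed for the parental cells. In experiment 2, clone origin, RBFOX2 loss and RBFOX1 induction therefore cannot be told apart. Nothing in the labels says that replicates were separate cultures, so the p-values measure the spread between these libraries, which may be technical.

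Gene counts totalled 34025315 to 55298749 per library, and back-splice reads 10004 to 28691. RBFOX1 stood at 38.8 to 39.5 CPM (counts scaled to 1000000 effective library counts) in induced and 3.26 to 4.41 CPM in uninduced cells of experiment 1, and at 39.7 to 41.0 CPM in induced and 0 CPM in parental cells of experiment 2. RBFOX2 stood at 46.5 to 58.1 CPM in the 9 clone libraries and 183 to 184 CPM in the 3 parental ones. Of the HEK293 markers with a row, VIM, KRT18, KRT8, SOX2 and PAX2 were read in all 4 groups, while NEFM averaged 0.504 CPM in induced and 36.0 CPM in parental cells of experiment 2. A list of 16 blood, liver and fibroblast markers, of which 13 had a row in experiment 1 and 15 in experiment 2, summed to 6.63 to 7.24 CPM in induced and at least 9.58 CPM in uninduced cells of experiment 1, and to 5.62 to 6.74 CPM in induced and 9.56 to 12.1 CPM in parental cells of experiment 2. Their part in the segment's values was not tested.

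CircRNAs form when a downstream splice donor joins an upstream acceptor, which leaves a closed ring of exons that lacks ends and outlasts most linear RNA. Each ring is counted by the reads across its back-splice junction, and its abundance depends on the transcription of the host as well as on the splicing choice. The proximal long arm of chromosome 19 carries CCNE1 and AKT2, whose region is gained in some tumours, and one of the dense clusters of Krüppel-associated box (KRAB) zinc finger genes, which encode DNA-binding repressors. HEK293 cells are known to have an unstable karyotype that differs between sublines. RNA counts do not separate the number of gene copies from the transcription of each copy, and no DNA measurement was analysed here.

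Promoter windows are shown for 3 hosts on which the results turn: UBA2, which gave more back-splice reads than any other host of the segment, and ZFP82 and ZNF793, whose gene counts were among those farthest above the parental level. They come from RefSeq (GRCh38.p14), run from 250 bases before to 50 bases after the annotated start in the direction of the gene, and carry each CG dinucleotide in capitals. UBA2 lies on the plus strand at chr19:34428131-34428430, ZFP82 on the minus strand at chr19:36418595-36418894 and ZNF793 on the plus strand at chr19:37506689-37506988.
UBA2: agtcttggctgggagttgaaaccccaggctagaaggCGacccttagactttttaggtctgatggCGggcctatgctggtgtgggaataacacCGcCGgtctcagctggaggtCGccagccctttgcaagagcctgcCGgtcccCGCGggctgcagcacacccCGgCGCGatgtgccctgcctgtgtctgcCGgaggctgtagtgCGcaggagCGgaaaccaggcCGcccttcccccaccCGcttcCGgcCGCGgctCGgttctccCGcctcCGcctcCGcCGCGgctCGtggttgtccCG
ZFP82: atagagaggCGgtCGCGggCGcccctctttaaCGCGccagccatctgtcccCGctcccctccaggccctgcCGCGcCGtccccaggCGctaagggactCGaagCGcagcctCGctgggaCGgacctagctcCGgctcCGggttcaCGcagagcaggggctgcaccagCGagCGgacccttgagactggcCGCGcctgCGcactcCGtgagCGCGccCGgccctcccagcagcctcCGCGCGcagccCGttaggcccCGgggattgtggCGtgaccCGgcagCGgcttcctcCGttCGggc
ZNF793: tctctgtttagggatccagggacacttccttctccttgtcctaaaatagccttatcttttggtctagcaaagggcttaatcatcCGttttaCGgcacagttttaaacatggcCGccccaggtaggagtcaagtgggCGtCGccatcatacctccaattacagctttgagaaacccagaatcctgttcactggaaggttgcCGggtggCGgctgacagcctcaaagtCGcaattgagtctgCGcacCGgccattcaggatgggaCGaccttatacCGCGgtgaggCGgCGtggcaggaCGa
The UBA2 window held 27 CG dinucleotides, the ZFP82 window 37 and the ZNF793 window 16. CG reads the same on both strands and was the only motif searched. It occurred in 96.0% of the 35116 windows of the table, with a median of 14, and the 113 windows of the 74 segment hosts that had one held a median of 24, between 2 and 51. A window with many or few CG says nothing of methylation or of a factor's binding, neither of which was measured.

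In experiment 2 nearly all segment hosts with a gene row had more reads in the clone than in parental cells. Of the 83 hosts tested, 79 were called higher and 1 lower with edgeR's quasi-likelihood test at an adjusted p under 0.05, against 65.0% of all 17945 genes called in either direction, 32.1% higher and 32.9% lower. This contrast chose the segment, so nothing is read from that count. The median log2 fold change of induced over parental cells was 1.29 in the segment, with quartiles of 1.06 and 1.86, against -0.09 over the 291 tested hosts on the rest of chromosome 19 and -0.01 over all genes. A log2 fold change above 1 was reached by 66 of the 83 hosts, or 79.5%, and by 9.51% of all genes. All 3 induced libraries lay above all 3 parental libraries for 79 hosts, as they did for 33.3% of all genes. The profile of hosts along chromosome 19 shows the values side by side for both experiments.

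**Figure D1:**
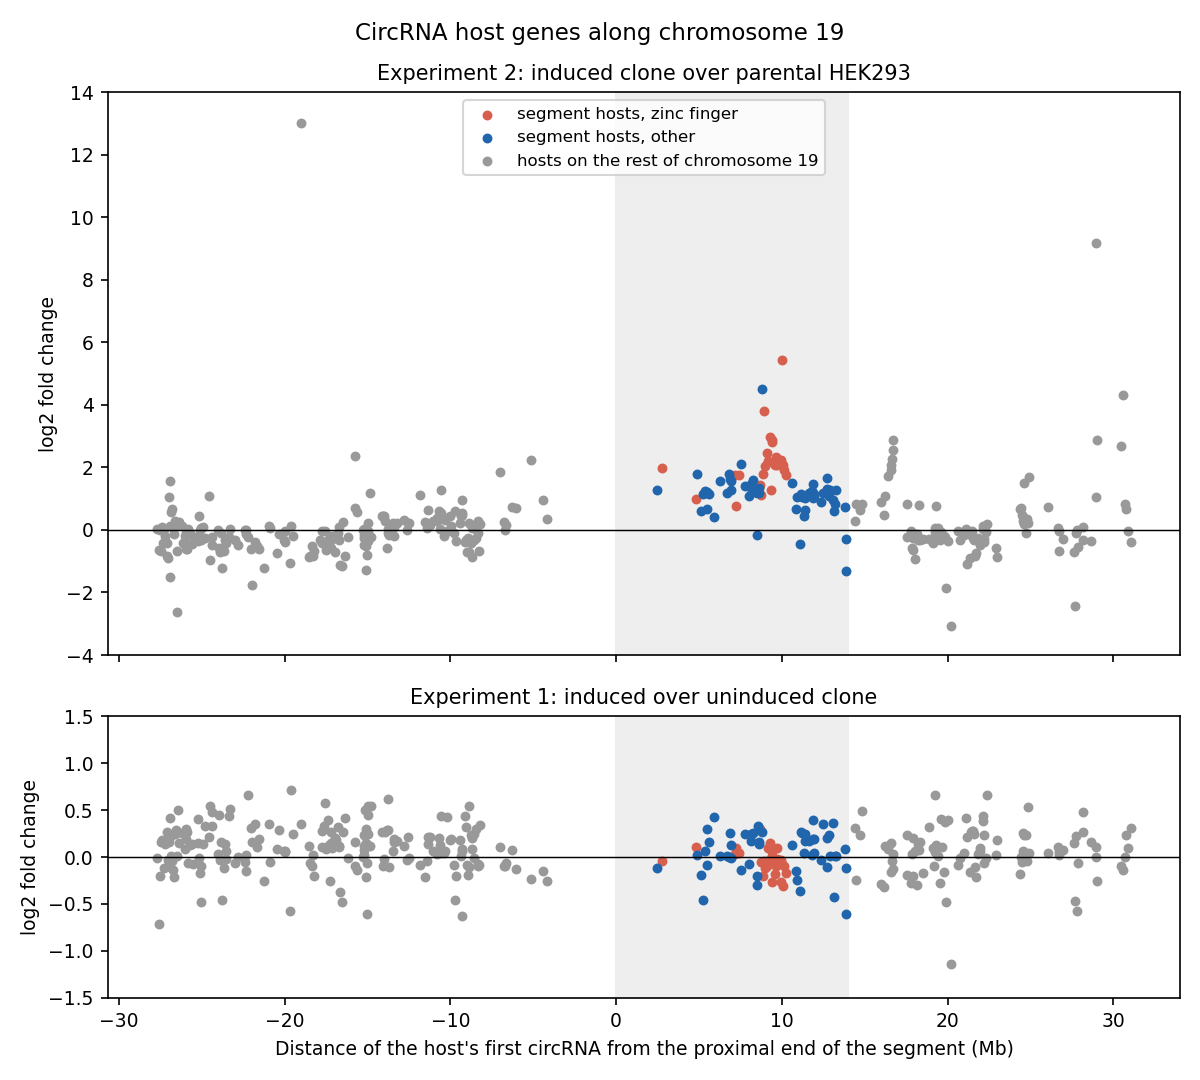
Log2 fold change of each circRNA host gene with a tested row (y axis, on a wider scale in the upper panel) against the distance of its first circRNA from the proximal end of the segment in Mb (x axis). Grey shading marks the segment; in experiment 2 its hosts had a median of 1.29 and in experiment 1 a median of 0.01, against -0.09 and 0.10 for hosts on the rest of the chromosome.

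Cells of the same clone with and without induction, a contrast the choice of segment did not use, differed little over the segment. In experiment 1, 13 of 83 hosts were called higher and 8 lower in induced cells with edgeR at an adjusted p under 0.05, which is 25.3%, against 20.9% of all 18978 genes (10.5% higher, 10.4% lower) and 28.4% of the 289 tested hosts on the rest of the chromosome. The share in the segment is near that of all genes. The median log2 fold change was 0.01, from -0.61 to 0.43, against 0.10 on the rest of chromosome 19 and 0.00 over all genes. The number called depended on single libraries: it was 6 without induced library 1 and also without induced library 3, 14 without induced library 2, 13 without uninduced library 1, 9 without uninduced library 2 and 25 without uninduced library 3.

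Within each library the reads of the segment were divided by those of the rest of chromosome 19, which takes the depth of the library out of the comparison. For gene counts of hosts this ratio was 0.474, 0.496 and 0.468 in induced and 0.482, 0.487 and 0.533 in uninduced libraries of experiment 1. It was 0.462, 0.46 and 0.459 in induced and 0.182, 0.183 and 0.186 in parental libraries of experiment 2. The groups of experiment 1 overlapped, while the parental libraries stood below all 9 libraries of the clone. In experiment 1 the induced over uninduced ratio was 0.958-fold, a log2 difference of -0.06 ± 0.053 (SE, n = 3 each; two-sided exact permutation test, p = 0.4, smallest possible 0.1). With all genes that carry a symbol as the denominator the sign turned, to 0.04. In experiment 2 the induced over parental ratio was 2.51-fold, a log2 difference of 1.33 ± 0.0095 (SE, n = 3 each), given without a test.

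Back-splice reads of the segment were likewise lowest in parental libraries, while within experiment 1 their order differed from that of the hosts. Their ratio of segment to rest was 1.4, 1.49 and 1.38 in induced and 1.37, 1.34 and 1.27 in uninduced libraries of experiment 1, and 0.868, 0.829 and 0.778 in induced and 0.247, 0.368 and 0.297 in parental libraries of experiment 2. All 3 induced libraries lay above the other 3 in both experiments, by little in experiment 1. As a share of all back-splice reads of chromosome 19, the segment took 46.5%, 45.3% and 43.8% in induced and 19.8%, 26.9% and 22.9% in parental libraries of experiment 2. The exact 95% binomial intervals, which cover counting error only, ran from 39.2% to 51.6% over the induced and from 16.2% to 31.5% over the parental libraries. The induced over uninduced difference of experiment 1 was 0.10 ± 0.046 on the log2 scale, or 1.07-fold (SE, n = 3 each; two-sided exact permutation test, p = 0.1, the smallest this design can give). That of induced over parental cells in experiment 2 was 1.46 ± 0.17, or 2.75-fold (SE, n = 3 each).

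**Figure D2:**
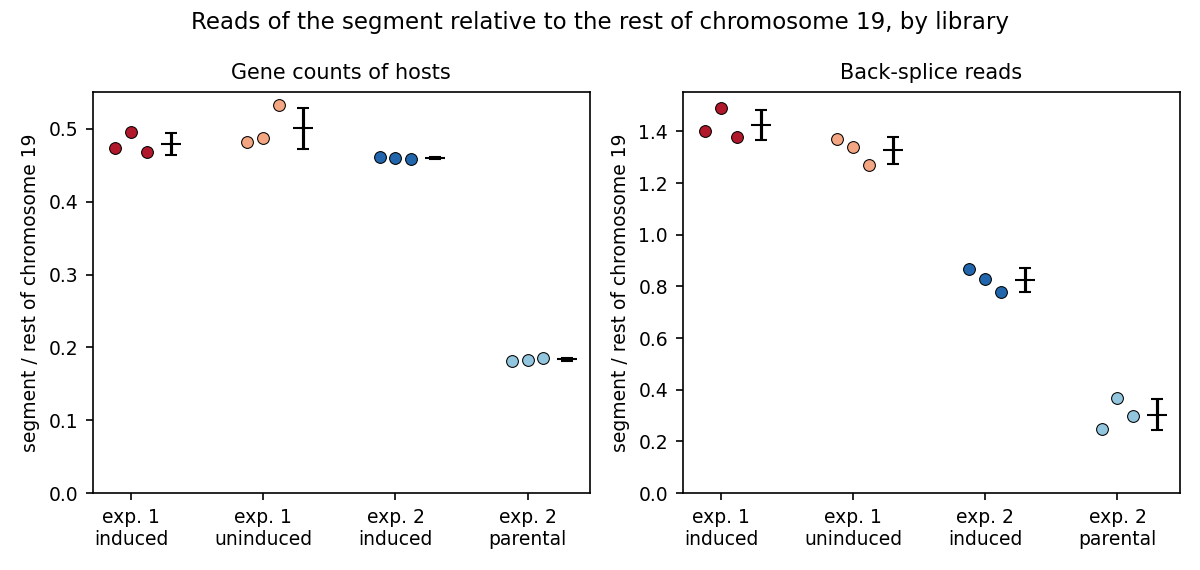
Gene counts of segment hosts (left) and back-splice reads of segment circRNAs (right), each divided by those of the rest of chromosome 19 in the same library; points are libraries, and the bar beside them is the mean ± SD of 3. The 3 parental libraries lie lowest in both panels, at 0.182 to 0.186 for hosts and 0.247 to 0.368 for back-splice reads.

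Within experiment 1 the uninduced clone already stood at the level of the induced one. Set per 10000 counts of hosts on the rest of chromosome 19, the 3 uninduced libraries of experiment 1 were all above the 3 parental libraries of experiment 2 for 77 of 83 hosts, and the 3 induced libraries of experiment 2 were above them for 79. The same counts were not made over all genes, so nothing is read from 77 or 79. The median log2 ratio to parental cells was 1.74 for uninduced and 1.73 for induced cells of experiment 1, and 1.30 for induced cells of experiment 2. On this scale the induced cells of experiment 2 lay below those of experiment 1 by a median of -0.43 (log2). The denominator itself differed between the experiments. Hosts on the rest of chromosome 19 took 763817 of 55298749 counts in induced library 1 of experiment 1. They took 817171 of 37826319 in induced library 1 of experiment 2, and 923895 of 40809566 in parental library 1. The medians and the sign of -0.43 therefore hold for this denominator only. In CPM the hosts differed. UBA2 averaged 728 CPM in uninduced and 308 CPM in parental cells, and URI1 231 and 109 CPM. Others were lower in uninduced than in parental cells, among them PAF1 (44.0 and 227 CPM), ACTN4 (105 and 210 CPM) and HNRNPL (125 and 203 CPM). Hosts on each side were not counted. Between the induced groups, UBA2 averaged 722 CPM in experiment 1 and 907 CPM in experiment 2, and ZNF571 45.2 and 22.5 CPM. Experiments were counted in separate tables, and across them the clone and the experiment cannot be told apart, so these values were not tested.

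Back-splicing relative to gene counts was higher for the segment than for the rest of the chromosome in every library. The back-splice reads include rings of hosts without a gene row. Gene counts cover only the hosts with one, 83 of 90 in the segment and 296 of 314 on the rest. Per 100000 host counts the segment gave 85.9 ± 7.27 back-splice reads in induced and 78.7 ± 20.5 in uninduced cells of experiment 1, and 49.3 ± 2.10 in induced and 56.5 ± 3.52 in parental cells of experiment 2 (SD, n = 3 each). The rest of chromosome 19 gave 29.0 ± 2.63 in induced and 29.2 ± 5.31 in uninduced cells, and 27.6 ± 2.61 in induced and 34.8 ± 4.77 in parental cells (SD, n = 3 each). The induced groups of the 2 experiments come from the same clone and treatment, and still the segment's value was 85.9 in experiment 1 and 49.3 in experiment 2. The segment over rest quotient of these rates was 2.97 ± 0.0261 in induced and 2.66 ± 0.243 in uninduced cells (SD, n = 3 each), a log2 difference of 0.16 ± 0.078 (two-sided exact permutation test, p = 0.1, the smallest possible). In experiment 2 it was 1.79 ± 0.0927 in induced and 1.66 ± 0.337 in parental cells (SD, n = 3 each). UBA2 weighed much in these values: without its rings and gene counts, a setting chosen after seeing the data, the quotient was 1.93 ± 0.0886 in induced and 1.80 ± 0.20 in uninduced cells (SD, n = 3 each; two-sided exact permutation test, p = 0.4). It was then 1.41 ± 0.168 in induced and 1.31 ± 0.285 in parental cells (SD, n = 3 each), and 1.05 or more in every library.

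Along the segment, the median of experiment 2 was highest in the middle, where most of the zinc finger hosts lie. Hosts whose first circRNA lies between 30 and 32 Mb had a median log2 fold change of induced over parental cells of 1.63 (2 hosts), those between 32 and 34 Mb 1.14 (9 hosts) and those between 34 and 36 Mb 1.57 (12 hosts). The median was 2.07 between 36 and 38 Mb (29 hosts), 1.12 between 38 and 40 Mb (18 hosts) and 0.95 between 40 and 42 Mb (13 hosts). The other hosts of the stretch from 36 to 38 Mb mostly lay below its median. HAUS5 had 1.34, COX6B1 1.46, C19orf55 1.59, ALKBH6 1.17 and CLIP3 -0.16. WDR62 had 1.30, POLR2I 1.17, CAPNS1 1.34 and LINC00665 4.52. Position and gene class were not separated here. In experiment 1 the same stretches had medians between -0.08 and 0.09.

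Some hosts beyond the ends set by the rule were higher in induced cells too, while values just inside the distal end were mixed. Just inside the proximal end URI1 had 1.27 and ZNF536 1.98, and just outside it, on the far side of the centromere, ZNF675 had 0.34. ZNF675 was the lowest of the 3 hosts between 22 and 24 Mb, whose median was 0.97 and highest value 2.22. The 6 hosts between 20 and 22 Mb had a median of 0.47, from -0.01 to 1.84. Just inside the distal end HNRNPUL1 had 0.72, TGFB1 -1.31 and TMEM91 -0.29, and just outside it ARHGEF1 had 0.27 and GSK3A 0.64. Not all well-read 19q13 genes were raised. Among those that are not hosts, SNRPA had 0.26, ATP5SL 0.11 and EXOSC5 -0.07, at 131, 54.6 and 39.4 CPM in parental cells. Beyond the distal end the 14 hosts from ARHGEF1 to RELB were all called higher, with a median of 0.98, and the zinc finger hosts among them, ZNF45, ZNF223, ZNF224, ZNF234, ZNF226 and ZNF227, lay between 1.74 and 2.86. From CLASRP on, 20 of 82 hosts were called higher and 38 lower, with a median of -0.15. Over all genes 32.1% were called higher and 32.9% lower. The dividing point was taken from these values, in the contrast that chose the segment, so nothing is read from either count. The last of the 14 hosts, RELB, was read at 1.37 CPM in induced and 0.774 CPM in parental cells. RELB starts at 45528587 and CLASRP at 45555329, but the change of level is not sharp there. Between ZNF227 and RELB, genes that are not hosts lay on both sides of 0, among them BCL3 with 0.60, CLPTM1 with 0.05, NECTIN2 with -0.37 and TOMM40 with -0.28.

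Genes of the segment that gave no listed circRNA were mostly higher in experiment 2 too. By RefSeq gene order from URI1 to TMEM91, 84 of 99 such genes tested in experiment 2 were called higher and 3 lower, with a median log2 fold change of 1.27 and quartiles of 0.77 and 1.90, against 283 higher and 358 lower of 927 other genes of the chromosome (median -0.06). Over all genes of experiment 2, 32.1% were called higher and 32.9% lower. This contrast chose the segment, so nothing is read from these counts. In experiment 1, 10 of 119 genes without a listed circRNA were called higher and 13 lower, with a median of 0.00, against 134 higher and 85 lower of 934 other genes of the chromosome and 10.5% higher and 10.4% lower of all genes. These genes share libraries and position with the hosts, so they are a description too.

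The host with most rings was UBA2 (ENSG00000126261), which encodes a subunit of the enzyme that activates the small modifier SUMO. Its gene level was 744, 699 and 724 CPM in induced and 732, 717 and 735 CPM in uninduced cells of experiment 1, and 915, 882 and 925 CPM in induced and 320, 304 and 301 CPM in parental cells of experiment 2. The groups of experiment 1 overlapped, and those of experiment 2 lay apart. The log2 fold change was -0.01 ± 0.059 in experiment 1 (SE, n = 3 each; edgeR adjusted p = 0.911) and 1.56 ± 0.048 in experiment 2 (SE), or 2.94-fold.

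URI1 (ENSG00000105176), a prefoldin-like chaperone subunit, had 215, 212 and 210 CPM in induced and 237, 231 and 225 CPM in uninduced cells of experiment 1. It had 269, 258 and 264 CPM in induced and 111, 103 and 112 CPM in parental cells of experiment 2, a log2 fold change of 1.27 ± 0.049 (SE). The groups did not overlap in either experiment, and the difference in experiment 1, -0.12 ± 0.051, did not pass (edgeR adjusted p = 0.127). AKT2 (ENSG00000105221), a kinase of insulin signalling, had 268, 302 and 287 CPM in induced and 115, 118 and 110 CPM in parental cells of experiment 2, or 1.32 ± 0.052 (SE). In experiment 1 it had 186, 179 and 185 CPM in induced and 170, 171 and 138 CPM in uninduced cells, or 0.20 ± 0.083 (SE, n = 3 each; edgeR adjusted p = 0.123).

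The 28 zinc finger hosts of the segment, named ZNF, ZFP or HKR1, stood farther above the parental level than its other hosts. In experiment 2 all 28 were called higher, with a median log2 fold change of 2.06 between 0.77 and 5.43, while 51 of the 55 other hosts were called higher with a median of 1.17. The 48 tested zinc finger hosts on the rest of chromosome 19 had 34 called higher, with a median of 0.61 between -0.85 and 9.18. Over all genes of experiment 2, 32.1% were called higher and 32.9% lower. Since this contrast chose the segment, nothing is read from these counts. In experiment 1, 1 of the 28 was called higher and 4 lower, with a median of -0.04, against 10.5% higher and 10.4% lower of all genes. Near-identical paralogs such as ZNF585A and ZNF585B may share reads, which makes their single values uncertain.

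ZNF793 (ENSG00000188227) had the highest value of the segment. It was read at 119, 112 and 118 CPM in induced and 2.48, 2.76 and 2.80 CPM in parental cells of experiment 2, a log2 fold change of 5.43 ± 0.073 (SE), or 43.1-fold. In experiment 1 it was read at 60.6, 63.0 and 57.1 CPM in induced and 59.7, 60.0 and 70.7 CPM in uninduced cells, where the groups overlapped (-0.07 ± 0.075, SE, n = 3 each; edgeR adjusted p = 0.524). ZFP82 (ENSG00000181007) had 84.2, 80.2 and 76.0 CPM in induced and 4.60, 6.13 and 6.24 CPM in parental cells of experiment 2, or 3.81 ± 0.085 (SE), and 75.9, 80.9 and 74.8 CPM in induced and 78.7, 76.0 and 84.0 CPM in uninduced cells of experiment 1. For both genes the 3 parental libraries were the lowest of the 12.

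LINC00665, a long noncoding RNA, stood between ZNF793 and ZFP82 in experiment 2, with a log2 fold change of 4.52 ± 0.11 (SE). Next below ZFP82 came ZNF850, ZNF829 and ZNF568 with 2.96 ± 0.053, 2.88 ± 0.074 and 2.82 ± 0.077 (SE). LINC00665 was read at 60.2, 65.6 and 59.0 CPM in induced and 1.89, 2.87 and 3.16 CPM in parental cells. ZNF568 was read at 58.5, 59.4 and 58.1 CPM in induced and 7.08, 8.81 and 8.96 CPM in parental cells. Neither gene's groups overlapped.

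**Figure D3:**
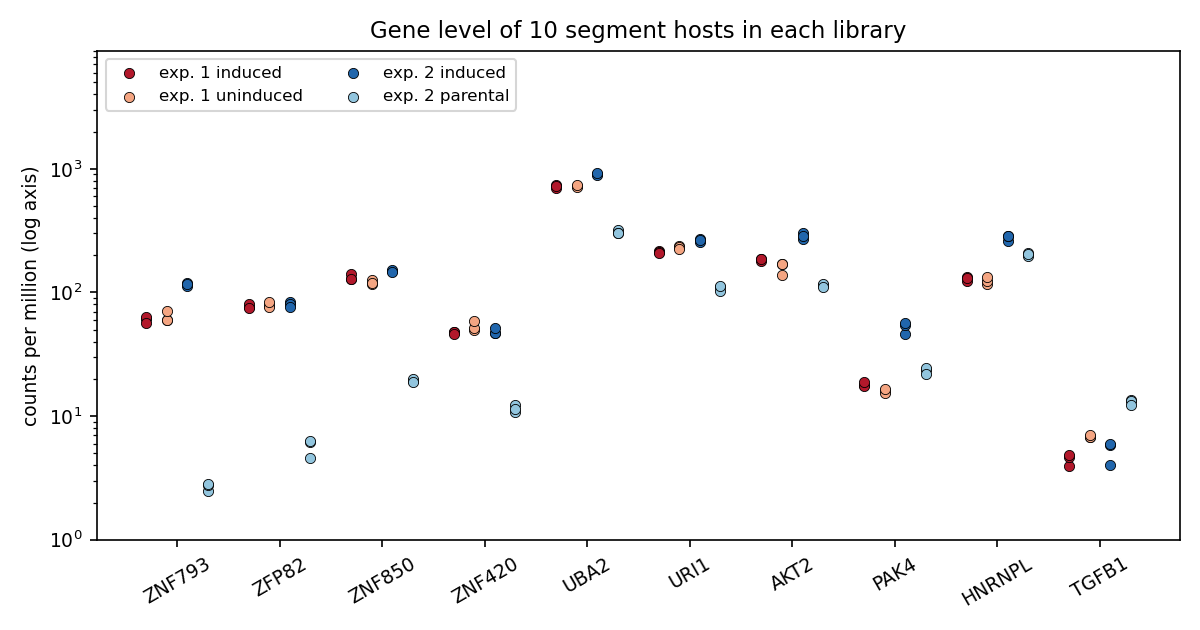
CPM (log axis) of 10 segment hosts in each library, 3 points a group, with the induced group left of its comparison group in each experiment. The 3 parental libraries lie lowest for the 7 hosts from ZNF793 to AKT2 (ZNF793: 2.48 to 2.80), between the clone's experiments for PAK4 and HNRNPL, and highest for TGFB1.

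A few hosts stood out on the low side. TGFB1 (ENSG00000105329), which encodes the cytokine TGF-beta 1, was the host called lower in experiment 2. It had 4.05, 5.83 and 5.94 CPM in induced and 13.6, 13.2 and 12.4 CPM in parental cells, a log2 fold change of -1.31 ± 0.12 (SE). In experiment 1 it had 3.95, 4.70 and 4.84 CPM in induced and 6.83, 6.72 and 7.08 CPM in uninduced cells, and fell by 0.61 ± 0.10 on the log2 scale (SE, n = 3 each; edgeR adjusted p = 0.00423). The groups lay apart in both experiments.

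RYR1, a calcium release channel of muscle, TMEM91, a membrane protein, and CLIP3, a relative of the microtubule-binding CLIP proteins, were the 3 hosts not called in experiment 2, with log2 fold changes of -0.44 ± 0.48, -0.29 ± 0.30 and -0.16 ± 0.32 (SE). All 3 were read at 1.11 CPM or less in every library of experiment 2. PEPD, the dipeptidase prolidase, and HNRNPL, a splicing regulator, had the smallest values above 0, with 0.41 ± 0.058 and 0.45 ± 0.050 (SE). HNRNPL was read at 260, 285 and 287 CPM in induced and 210, 197 and 203 CPM in parental cells.

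Of the 12 hosts named by rule for experiment 1, 4 were called under every alternative processing tried: WDR62, SHKBP1, TGFB1 and LTBP4. WDR62 (ENSG00000075702), a spindle pole protein, had 58.3, 58.2 and 59.0 CPM in induced and 48.8, 47.6 and 43.2 CPM in uninduced cells and rose by 0.33 ± 0.059 (log2, SE, n = 3 each; edgeR adjusted p = 0.00606). SHKBP1 (ENSG00000160410) rose by 0.36 ± 0.057 (edgeR adjusted p = 0.00402), at 27.8, 27.6 and 28.9 CPM in induced and 22.0, 21.6 and 22.4 CPM in uninduced cells. LTBP4 (ENSG00000090006), which holds latent TGF-beta in the matrix, fell by 0.43 ± 0.072 (edgeR adjusted p = 0.00455), at 27.2, 29.1 and 29.9 CPM in induced and 40.9, 40.1 and 35.2 CPM in uninduced cells. The groups of these genes did not overlap. All 3 induced libraries lay above the uninduced ones in 25 of the 83 hosts, and in 20.5% of all genes.

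The other 8 lost their call under at least 1 alternative. PAF1, of the elongation complex of that name, rose by 0.40, PSMC4, an ATPase of the proteasome's regulatory particle, by 0.35, ZNF565 by 0.30 and PEPD by 0.43. TDRD12, a factor of the piRNA pathway in germ cells, fell by 0.46, ZNF571 by 0.31, ZNF569 by 0.27 and ZNF568 by 0.27. All 8 lost the call without induced library 1 and 7 of them without induced library 3, with edgeR adjusted p values up to 0.159 over all alternatives. It was also lost by 3 of the 8 without induced library 2, by 2 without uninduced library 1, by 4 without uninduced library 2 and by 5 with the replicate number as a block.

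Lists of genes of the region, hosts or not, gave the following counts in experiment 2, where 32.1% of all genes were called higher and 32.9% lower. None of them is a test of the list. Of 9 genes around CCNE1 in 19q12, all 9 were called higher, with a median log2 fold change of 1.17. CCNE1, the cyclin that drives entry into DNA synthesis, had 62.9, 65.4 and 68.0 CPM in induced and 38.0, 34.8 and 36.8 CPM in parental cells, or 0.84 ± 0.056 (SE). POP4, a protein of RNase P, had 119, 114 and 130 CPM in induced and 53.7, 49.8 and 53.6 CPM in parental cells, or 1.21 ± 0.056 (SE). Of 18 genes of the PAK4 and AKT2 stretch, 16 were called higher and 2 lower (median 1.18). Those called lower were TGFB1 and AXL, the latter with -3.22 at 0.0796 CPM in induced and 0.773 CPM in parental cells. PAK4, a kinase of the cytoskeleton, had 46.1, 54.9 and 56.8 CPM in induced and 23.7, 24.4 and 21.9 CPM in parental cells, or 1.17 ± 0.073 (SE).

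Of 12 tested genes of respiration and mitochondria, 10 were called higher (median 0.95), among them COX6B1, a subunit of cytochrome c oxidase, with 219, 218 and 229 CPM in induced and 88.0, 73.9 and 80.4 CPM in parental cells. BCKDHA (-0.33) and ATP5SL (0.11) were not called. Of 15 genes of RNA processing 14 were called higher (median 1.16), and EXOSC5 (-0.07) was not called. Of 9 tested genes of protein turnover 7 were called higher and 1 lower (median 1.12). The lower one was SPINT2 with -2.3, at 3.62 CPM in induced and 17.9 CPM in parental cells. Of 38 zinc finger genes all 38 were called higher (median 2.05). In experiment 1, where 10.5% of all genes were called higher and 10.4% lower, the same lists had 2 higher and 1 lower of 9 around CCNE1 (median -0.06), 5 and 1 of 18 (0.18), 3 and 0 of 12 (0.25), 5 and 0 of 15 (0.16), 2 and 2 of 10 (0.09), and 1 and 4 of 38 zinc finger genes (-0.04). The median over all genes tested was -0.01 in experiment 2 and 0.00 in experiment 1.

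The 330 circRNAs carried 2400 back-splice reads over the 12 libraries. Of these circRNAs 321 were exonic and 9 intronic, 127 (38.5%) had a single read, 42 had at least 10 and 7 at least 50. UBA2 alone gave 47 circRNAs and 863 reads, or 36.0%, and URI1 gave 12 circRNAs and 303 reads. Without UBA2 the ratio of segment to rest was 0.594 ± 0.0716 in induced and 0.222 ± 0.0482 in parental cells of experiment 2 (SD, n = 3 each), a log2 difference of 1.44 ± 0.21 (SE). In experiment 1 it was 0.827 ± 0.0389 in induced and 0.798 ± 0.0494 in uninduced cells (SD, n = 3 each), or 0.05 ± 0.065 (SE; two-sided exact permutation test, p = 0.5).

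The UBA2 rings reused a few junctions. Those that began at position 34921481 of chromosome 19 (hg19, plus strand, counted from 1) numbered 8 and held 529 reads, and those that began at 34922766 numbered 7 and held 200, which makes 84.5% of UBA2 reads. Ends at 34925873 and 34929671 took 286 and 317 reads. The most read ring joined 34925873 back to 34921481, with 4 exons and 321 bases. It had 52, 26 and 24 reads in induced and 29, 30 and 13 in uninduced libraries of experiment 1, and 12, 6 and 13 in induced and 5, 7 and 11 in parental libraries of experiment 2. The groups overlapped in both experiments.

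Of the segment's circRNAs, 23 had enough reads to be tested in experiment 1, and edgeR called 0 of them (1 with an unadjusted p under 0.05; DESeq2 called 0, with 0 under that level), against 0.0% of all 1701 tested circRNAs. Their median log2 fold change was 0.20, between -1.52 and 2.07, and that of all circRNAs 0.06. In experiment 2, 18 had enough reads, 1 was called higher, and 14 had a fold change above 0 with a median of 0.96, against -0.19 over all 2381 tested circRNAs, of which 1.68% were called and 0.714% called higher. Since experiment 2 chose the segment, these counts are not read further. At the depth of single rings, differences between groups were mostly not detectable.

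The ring called in experiment 2 was UBA2 34922766 to 34929671 (4 exons, 359 bases), with 20, 8 and 5 reads in induced and 1, 4 and 0 in parental libraries, a log2 fold change of 2.88 ± 0.84 (SE). The groups did not overlap, but the call was lost without induced library 1 (2.13), without parental library 1 (2.70) and without parental library 3 (2.28). In experiment 1 it had 14, 10 and 12 reads in induced and 13, 13 and 3 in uninduced libraries, where the groups overlapped (0.21 ± 0.43; SE, n = 3 each; edgeR adjusted p = 0.965).

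The URI1 ring 30476130 to 30477324 (2 exons, 215 bases) had 36, 21 and 31 reads in induced and 38, 27 and 7 in uninduced libraries of experiment 1, and 11, 8 and 9 in induced and 17, 8 and 12 in parental libraries of experiment 2. Its groups overlapped in both experiments, although the URI1 gene lay well apart in experiment 2. ZNF536 encodes a zinc finger protein of neuronal differentiation, and its ring 31038850 to 31040421 consists of 1 exon of 1572 bases. It had 4, 17 and 7 reads in induced and 0, 3 and 3 in parental libraries of experiment 2, which did not overlap, and 9, 3 and 2 in induced and 6, 9 and 4 in uninduced libraries of experiment 1, which did.

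ZNF420 (ring 37579941 to 37582023, exons of 89 and 127 bases) had 4, 4 and 3 reads in induced and 0, 0 and 0 in parental libraries of experiment 2. Against a floor of 3 reads over the parental group this is 4.42-fold higher in induced cells. That value leaves out the counting error of the induced reads, so it is not a strict lower bound. It lies above the median of the tested rings. In experiment 1 the ring had 8, 6 and 6 reads in induced and 11, 9 and 4 in uninduced libraries, which overlapped. Over all ZNF420 rings the induced libraries of experiment 2 had 14 reads and the parental ones 0, or 5.63-fold against the same floor (2.49 on the log2 scale). The log2 fold change of the gene was 2.07, and so few reads cannot tell whether rings and gene differ. The gene stood at 47.0, 46.6 and 51.1 CPM in induced and 10.7, 12.3 and 11.5 CPM in parental cells.

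Rings from SIPA1L3, a relative of Rap GTPase-activating proteins, from AKT2 and from ITPKC, an inositol trisphosphate kinase, completed the 10 most read. The SIPA1L3 ring 38631824 to 38633350 had 6, 7 and 7 reads in induced and 1, 7 and 1 in parental libraries of experiment 2. The AKT2 ring 40761065 to 40771258 had 3, 0 and 2 reads in induced and 1, 1 and 4 in parental libraries, and the ITPKC ring 41242891 to 41243674 had 1, 1 and 4 in induced and 6, 1 and 0 in parental libraries. In raw reads all 3 overlapped between the groups. For the SIPA1L3 ring this rests on parental library 2, with 7 reads at 44827245 gene counts, and induced library 1, with 6 reads at 37826319. Scaled for depth these libraries change order. At these depths the sign of the fold changes of the AKT2 and ITPKC rings turned with single libraries.

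Host by host, rings and gene did not always move by the same amount. Among the 22 hosts with a gene row and at least 20 back-splice reads, 17 had reads in both groups of experiment 2. The log2 ratio of induced over parental back-splice CPM was above 0 in 15 of these, with a median of 1.15, beside a median of 1.24 for the gene. It was below the gene's change in 11 hosts and above it in 6, with a median difference of -0.41. The 5 hosts left out of these counts, RHPN2, ZNF302, ZNF567, ZNF568 and ZNF420, each had 5 to 16 ring reads in induced and 0 in parental libraries, so all 5 lay on the high side and the counts describe the 17 only. Genes are not replicates and the read numbers are small, so this is a description.

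UBA2 rings summed to 67, 36 and 55 reads in induced and 25, 29 and 32 in parental libraries, a log2 ratio of 1.15 beside 1.56 for the gene. URI1 rings summed to 17, 17 and 10 reads in induced and 19, 11 and 14 in parental libraries, a log2 ratio of 0.27 beside 1.27 for the gene. Per 1000 URI1 gene counts that was 1.48 ± 0.406 ring reads in induced and 3.01 ± 1.03 in parental cells (SD, n = 3 each). The opposite case was ZNF536, with 5, 19 and 8 reads in induced and 0, 3 and 3 in parental libraries, a log2 ratio of 2.69 beside 1.98 for the gene.

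SUPT5H encodes the elongation factor SPT5, and among the 17 hosts its rings had the lowest log2 ratio. The other host at or below 0 was ANKRD27, with -0.02 for the rings beside 0.62 for the gene. Of hosts with fewer reads, GPI had 0 ring reads in induced and 6 in parental libraries beside a gene value of 1.63, and ZNF30 had 0 in induced and 4 in parental libraries beside 1.76. The SUPT5H rings had 2, 1 and 2 reads in induced and 3, 11 and 9 in parental libraries, a log2 ratio of -1.93. The gene had 270, 296 and 298 CPM in induced and 127, 133 and 126 CPM in parental cells, or 1.16 ± 0.050 (SE). Neither the rings nor the gene overlapped between the groups. On the other side the ring ratios were 1.91 for GPATCH1 and LSM14A and 1.95 for HNRNPUL1, beside gene values of 1.14, 1.18 and 0.72. All 7 of these hosts were picked out after their values were seen.

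**Figure D4:**
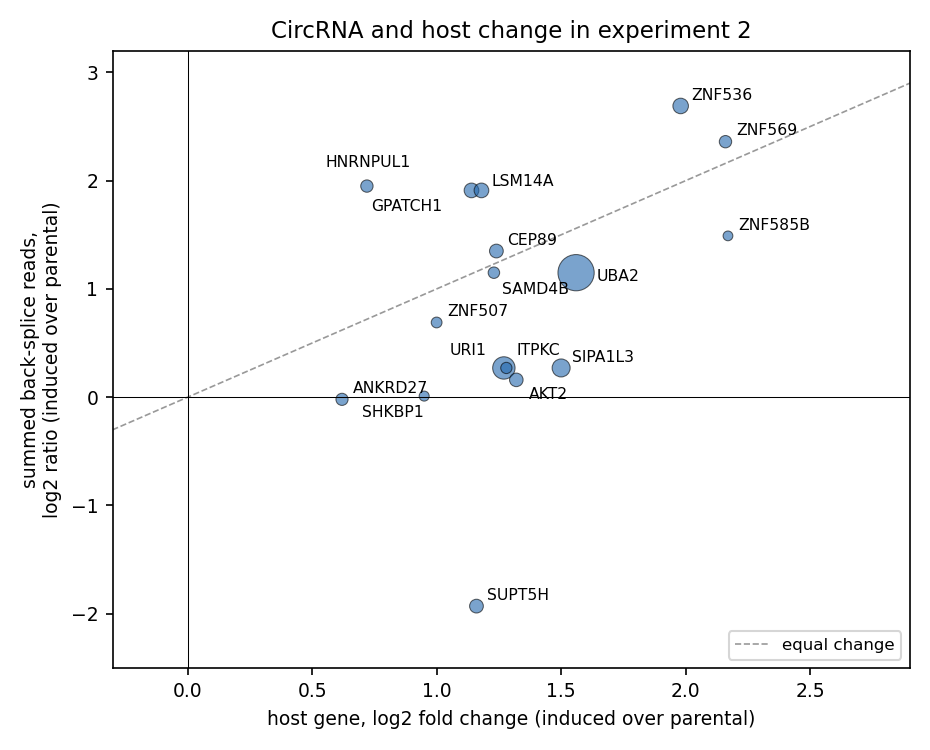
Log2 ratio of summed back-splice CPM (y axis) against the log2 fold change of the host gene (x axis), induced over parental cells, for the 17 segment hosts with at least 20 back-splice reads and reads in both groups; point area grows with the back-splice reads of experiment 2. The dashed line marks equal change; 11 hosts lie below it and 6 above it, with SUPT5H at -1.93, and 5 hosts with 0 parental reads are not drawn.

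Rings of zinc finger hosts often shared 1 exon length, which the rule did not use. Of 60 exonic circRNAs from zinc finger hosts of the segment, 30 held an exon of exactly 127 bases, the commonest length in that set, and those took 54.5% of the reads of the set. Of 261 exonic circRNAs from other segment hosts, 6 (2.30%) held one. On the rest of chromosome 19 the shares were 59 of 80 (73.8%) for zinc finger hosts and 22 of 650 (3.38%) for others. In many KRAB zinc finger genes the KRAB A box lies on a separate exon of about this length. Zinc finger rings of the segment were also shorter, with a median of 290 spliced bases and 2 exons, against 443 bases and 4 exons for its other hosts. The rings of 1 host overlap and share exons, so the difference was not tested.

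**Figure D5:**
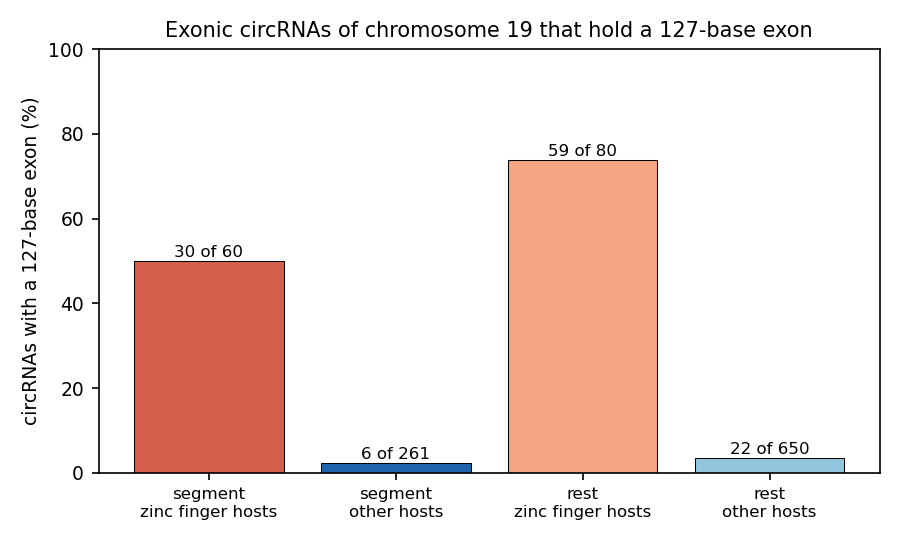
Share of exonic circRNAs of chromosome 19 that hold a 127-base exon (bars, with the counts above them), by zinc finger and other hosts in the segment and on the rest of the chromosome. Zinc finger hosts have 30 of 60 such rings in the segment and 59 of 80 on the rest; other hosts stay at 2.30% and 3.38%.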

How the data were processed

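Total RNA of 12 HEK293 libraries was sequenced in 2 experiments. The authors deposited, for each experiment, raw counts per gene and raw counts of back-splice reads per circRNA; STAR 2.5.2b and hg19 are named per the submitters' processing notes, and the circRNA caller and the strand setting are not given in the sources used here. Gene counts totalled 34025315 to 55298749 per library and back-splice reads 10004 to 28691. Intervals and floors cover counting error only.

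Members and gene lists were chosen with earlier results of these data known, and the contrast of experiment 2 chose the segment. Low genes were dropped by filterByExpr at a count of 10 and a total of 15, TMM set the library sizes, and all remaining genes of an experiment were tested with the quasi-likelihood test of edgeR 4.0.16 in R 4.3.3, with Benjamini-Hochberg adjustment and a threshold of 0.05; CPM uses the effective library sizes. CircRNAs with at least 10 reads, read in at least 3 of the 6 libraries of an experiment, were tested with the library sizes of the gene table. The edgeR procedure was run on simulated counts with the same fixed spread between libraries for genes and circRNAs. That check therefore says little of the test on single rings. Ratios within libraries were compared by exact permutation over libraries.

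Hosts were named by rule: the 6 called highest and 6 called lowest in experiment 1, the 6 highest and 6 lowest in experiment 2, and the hosts of the 10 most read circRNAs; genes of the fixed lists and features picked out after their values were seen are named besides. Alternatives were DESeq2 1.42.0, other scalings and filters, a replicate block, each library left out, other denominators and, chosen after seeing the data, hosts by symbol column alone, the ratio without UBA2 and a rest without the neighbouring 42 to 46 Mb. Positions of circRNAs count from 1. CircRNA sequences were not printed, since no hg19 genome was used here.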

Additional observations from a re-analysis of the deposited data

How the results depend on the processing

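Of 664 alternative values over 63 results, 598 kept direction and side of the threshold, or stayed near the reported value where no test applied. In experiment 1 the 21 called hosts became 9 with the replicate block, 9 with hosts matched by symbol column alone (fewer hosts) and 6 to 25 with 1 library left out. The host ratio of experiment 1 changed sign to 0.04 over all genes with a symbol, and ran from -0.09 to -0.02 with 1 library left out; the cause was not tested. In experiment 2 the 80 called hosts became 44 by symbol column alone, which leaves 46 hosts. The called circRNA was lost (0 called) with at least 5 reads, where more circRNAs are tested, and with the replicate block, and 0 to 1 were called with 1 library left out. The host ratio of 1.33 became 1.35 for starts between 30000000 and 40000000, 1.29 by symbol column alone, 1.36 without 42 to 46 Mb in the rest and 1.38 as a median of single hosts; the back-splice ratio of 1.46 became 1.22 over all back-splice reads.

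With 1 library left out, the sign turned for 4 rings' log2 fold changes in at least 1 experiment. The fold change ran from -0.14 to 0.64 in experiment 1 and from -0.39 to 0.25 in experiment 2 for the URI1 ring, from -0.11 to 0.43 in experiment 1 for the UBA2 ring 34922766 to 34929671, from -0.89 to 0.14 and from -0.25 to 0.60 for the AKT2 ring, and from -0.43 to 1.22 and from -0.62 to 0.28 for the ITPKC ring. The sign also turned in experiment 2 for the AKT2 ring with the block (-0.11), and for the ITPKC ring with the block (0.36) and with back-splice library sizes (0.09). The replicate numbers did not pair the libraries: correlations of same-numbered deviations were 0.194, -0.11 and 0.0194 in experiment 1 and 0.00479, 0.0296 and -0.0162 in experiment 2. The depth of single rings, few of which reach 50 reads, limits every statement on them.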
